A study of Danio rerio with 4 samples.

Results

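The genes described here encode lipoprotein and plasma proteins that the zebrafish embryo makes in the yolk syncytial layer, the cell layer around the yolk, and later in the liver. They are a set of 10 gene symbols, named with earlier results of these data known and with no limit on a measured value: *apoa1a*, *apoa1b*, *apoa2*, *apobb.1*, *mttp*, *apoea*, *apoeb*, *apoc1*, *tfa* and *fgb*. Of these, 9 had a row among the 19661 genes of the deposited table, and *fgb*, a fibrinogen subunit gene, was not analysed here. Hearts were dissected at 48 hpf in pools of 20, with 2 pools of *egr3* mutants (*bns577*-/-, homozygous for an allele that lacks 11 bp) and 2 pools of wild-type siblings (*bns577*+/+). The mutation was present in all cells of the embryo, and bulk RNA-seq averages over every cell type in a pool, so fewer cells of a type and less mRNA per cell cannot be told apart.

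Yolk lipid leaves the yolk syncytial layer in lipoproteins, particles with a shell of apolipoproteins. Apolipoprotein B, the structural protein of very-low-density lipoproteins, is loaded with lipid by the microsomal triglyceride transfer protein that *mttp* encodes, and the particles reach the embryo through the blood. The small exchangeable apolipoproteins of the A, C and E families sit on the particle surface. None of these genes is a marker of myocardium or endocardium, the main tissues of a dissected heart, and *apoeb* and *apoc1* are also known from cells of the macrophage lineage.

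None of the 5 members with at least 26 normalized counts in every library passed the test between *egr3* mutants and wild-type siblings. For *apobb.1* and *apoc1* no test is read, for a reason given below. The mean difference was 2.00-fold for *apoeb* and 1.90-fold for *tfa* (with 1 added to each value), higher in mutants, but the pools of the genotypes overlapped for both genes. *apobb.1* was higher in both mutants and *apoa1b* lower, the former at no more than 11 normalized counts. Across the 4 libraries *apoa2* and *tfa* were highest in mutant replicate 2, *apoa1a* and *apoc1* in wild-type replicate 2, and *apoeb* in mutant replicate 1.

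The unit of all levels is the normalized count, a read count per gene scaled between libraries with DESeq2 and rounded by the authors. The 4 libraries had totals between 9161759 and 9481943 normalized counts. *egr3* itself (chromosome 8, 50727220 to 50733508, danRer11 here and below) stood at 528 and 537 normalized counts in wild-type pools, and at 873 and 889 in mutant pools, and since the allele lacks 11 bp of a transcript that is still counted, this level does not check for the allele itself. It differed by 0.73 on the log2 scale between the labelled genotypes. Together the 9 genes made up 0.00488% and 0.00516% of the wild-type totals and 0.0086% and 0.00813% of the mutant totals. By count, and not per length of transcript, most of that sum and of the gap between the genotypes came from *apoeb* and *tfa*. Within each genotype the pool that was higher in *apoeb* was lower in *tfa*. Their sum was thus more even than either gene, and the genotypes overlapped in both genes. The remaining 7 genes summed to 161 and 173 normalized counts for wild types, against 170 and 183 for mutants.

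Genes of the yolk syncytial layer and liver were detected unevenly. *tfa* ranged from 77 to 343 normalized counts over the libraries, *apoeb* from 113 to 473, *apoa1a* from 49 to 92 and *apoa2* from 26 to 90. In contrast *mttp* reached 2 normalized counts in 1 library, wild-type replicate 1, and was listed at 0 in the other 3, and *apobb.1* did not exceed 11. The 7 vitellogenin genes of a list of yolk protein genes had no row among those used here. Whether yolk or liver tissue was in these pools was not tested, and the label of the group is used for the genes.

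**Figure D1:**
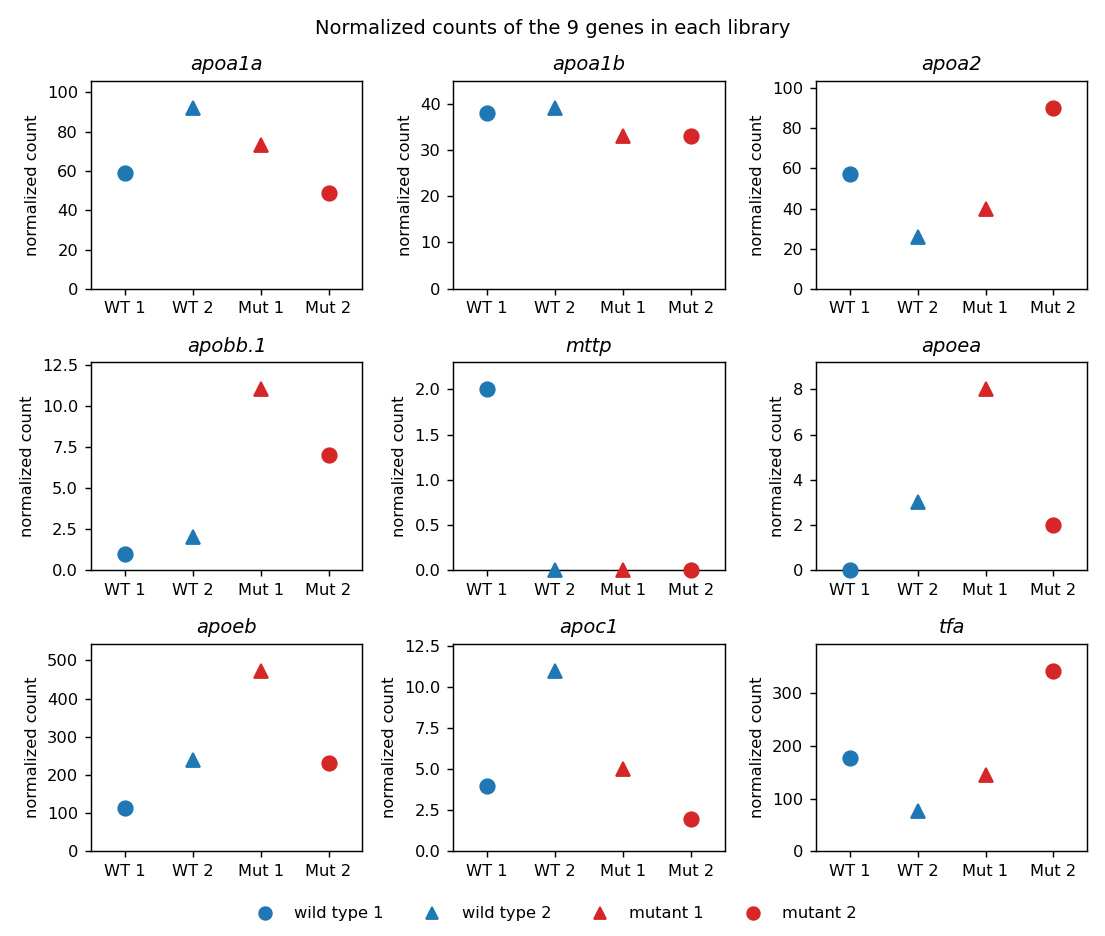
Normalized counts (vertical axes, each from 0) of the 9 genes in the 4 libraries (horizontal axes). Blue marks wild types and red mutants, circles mark wild-type replicate 1 and mutant replicate 2, and triangles the other pair. *apoeb* was highest in mutant replicate 1 at 473 and *tfa* in mutant replicate 2 at 343.

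In these values each gene holds only a pair of free differences between libraries. The first is the genotype difference, mutants minus wild types. The second is the library pair difference, the mean of wild-type replicate 1 and mutant replicate 2 minus the mean of wild-type replicate 2 and mutant replicate 1, each on a scale of log2(normalized count + 1). These pairs are those of the library names in the study's mapping sheet, where the libraries behind wild-type replicate 1 and mutant replicate 2 carry wild-type names and the others carry mutant names. All groups here follow the deposited labels; by those file names, the library pair difference would take the place of the genotype difference. For *egr3* the library pair difference was 0.00. The remaining difference, between replicates 1 and 2 with the genotypes averaged, was nearly constant over the genes with more than a few counts. Over the 17501 genes whose mean reached 5 normalized counts, its quartiles were -0.03 and -0.02, against -0.17 and 0.22 for the genotype difference and -0.17 and 0.19 for the library pair difference. For the 5 members with a mean of at least 20 it lay between -0.03 and -0.02.

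The consequence for a single gene is that the values of the replicates 1 multiply to nearly the same product as those of the replicates 2. For *apoeb* these products were 53449 (113 times 473) and 55209 (239 times 231), and for *tfa* they were 25810 (178 times 145) and 26411 (77 times 343). A library pair difference that appears in both genotypes is thus 1 measurement and not 2, and a single library that stood apart before the authors' processing cannot be told apart from a pair that did.

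**Figure D2:**
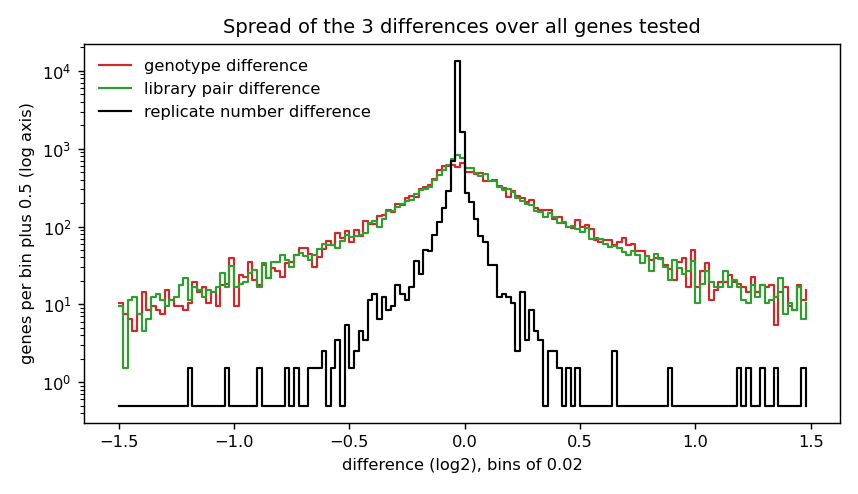
Number of genes (vertical axis, log scale, 0.5 added) in bins of 0.02 of each difference (horizontal axis, log2, shown from -1.5 to 1.5) over the 17501 genes tested. The replicate number difference (black) stands in a spike at its median of -0.03, whereas the genotype (red) and library pair (green) differences spread with SDs of 0.643 and 0.662.

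The genotype difference was tested by limma, which fits a linear model to each gene and moderates its variance, for these 17501 genes, and 7 of the 10 members were among them. *apoea* and *mttp* fell below that mean. After Benjamini-Hochberg adjustment in limma, no member had p under 0.05, though the tests of *apobb.1* and *apoc1* are not read. Over all genes 1 gene (0.00571%) passed, the hatching enzyme gene *he1.1*, while 21.6% had an unadjusted p under 0.05. *apobb.1* reached the mean of 5 only through the mutant libraries and *apoc1* only through wild-type replicate 2, so both are given by their values and left out of the counts. The other 5 members, *apoa1a*, *apoa1b*, *apoa2*, *apoeb* and *tfa*, had at least 26 normalized counts in every library, and are read against the 14692 genes whose mean reached 20. In limma the adjusted p of these 5 lay between 0.38 and 0.641, and none had an unadjusted p under 0.05, against 22.5% of those genes. A difference of more than 1.5-fold was seen in 3 of the 5 (10.5% of those genes), all higher in mutants (6.17%): *apoa2*, *apoeb* and *tfa*. The genotypes did not overlap in 1 of the 5, *apoa1b*, against 52.1%.

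When the replicate number was made a block, none of *apoa1a*, *apoa1b*, *apoa2*, *apoeb* and *tfa* had an unadjusted p under 0.05 in limma. For the other tested members no test is read, with or without the block. No gene of the table passed adjustment with the block (0.0% of all genes tested, with 4.9% at an unadjusted p under 0.05). The block leaves the library pair difference as the only measure of spread for each gene. With 2 libraries per genotype, an exact two-sided permutation test of a single gene cannot go below p = 0.333, so none was made.

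The A-family apolipoproteins, the proteins of high-density lipoprotein, had no common direction. *apoa1a* (ENSDARG00000012076; chromosome 5, 37978501 to 37981521) encodes the main protein of high-density lipoprotein. It measured 59 and 92 normalized counts across wild types, with 73 and 49 across mutants. The genotypes overlapped, and wild-type replicate 2 was highest and mutant replicate 2 lowest. The genotype difference of *apoa1a* was -0.30 on the log2 scale (standard error 0.33, adjusted p = 0.641 from limma), and its library pair difference was -0.60 (standard error 0.19).

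Its paralog *apoa1b* (ENSDARG00000101324; chromosome 15, 102925 to 108414) was the most even of the 9 genes, with 38 and 39 normalized counts for wild types and 33 in each mutant. Both mutants were below both wild types, by 0.22 on the log2 scale (standard error 0.13, 95% interval -0.61 to 0.18, adjusted p = 0.42 from limma). The library pair difference of *apoa1b* was -0.02, the smallest of the 7 tested members. Reads that mapped to several places had been removed, so any stretch that *apoa1a* and *apoa1b* share was counted for neither.

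*apoa2* (ENSDARG00000015866; chromosome 16, 23978978 to 23980354), the other major high-density lipoprotein protein, ran in the opposite direction between the library pairs. It was at 57 and 26 normalized counts for wild types, against 40 and 90 for mutants, so the highest and the lowest libraries were both replicates 2. The library pair difference was 1.13 on the log2 scale (standard error 0.36, unadjusted p = 0.0414, adjusted p = 0.271 from limma), and wild-type replicate 1 and mutant replicate 2 both lay above the other libraries. The genotype difference of *apoa2* was 0.63 (standard error 0.61, adjusted p = 0.588 from limma), and its genotypes overlapped.

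The genes of very-low-density lipoprotein assembly were at very low levels. *apobb.1* (ENSDARG00000022767; chromosome 20, 31269778 to 31285980), an apolipoprotein B gene, stood at 1 and 2 normalized counts in wild-type pools, and at 11 and 7 in mutant pools. Both mutants were above both wild types, and the gene passed the mean of 5 only through the mutant libraries. Its genotype difference was 2.00 on the log2 scale and its library pair difference -0.58, and since the filter selected the gene through its mutant values, no test of it is read. *mttp* (ENSDARG00000008637; chromosome 1, 12105901 to 12126625) was at 0 in 3 libraries, and no fold is given.

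The E and C apolipoproteins direct lipoprotein uptake and lipase activity, and *apoeb*, the one at a level well above the filter, passed the test in neither contrast. *apoeb* (ENSDARG00000040295; chromosome 16, 23960744 to 23963461) measured 113 and 239 normalized counts across wild types, with 473 and 231 across mutants. Wild-type replicate 1 was lowest and mutant replicate 1 highest, while replicates 2 of both genotypes were nearly equal, so the genotypes overlapped. The mean was 176 ± 89.1 for wild types and 352 ± 171 for mutants (SD, n = 2 each). The genotype difference of *apoeb* was 1.00 on the log2 scale (standard error 0.56, 95% interval -0.63 to 2.64, adjusted p = 0.38 from limma). Its library pair difference was of the same size and opposite sign, -1.05 (standard error 0.54, adjusted p = 0.419 from limma). Between same-numbered replicates the mutant minus wild type difference of *apoeb* was 2.06 for replicate 1 and -0.05 for replicate 2.

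For its level, *apoeb* had larger differences of both kinds than most genes. Of the 4723 tested genes with a mean within a factor of 2 of that of *apoeb*, 0.868% had a library pair difference at least as large in either direction and 1.08% a genotype difference at least as large. Among genes of their own level, the share for the library pair difference was 20.9% for *apoa1a*, 97.6% for *apoa1b* and 7.15% for *apoa2*. The share for the genotype difference was 52.7%, 71.6% and 25.1% in that order. Genes of like level share the same 4 libraries, so these shares are a description.

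The paralog *apoea* (ENSDARG00000102004; chromosome 19, 10855158 to 10859694) was at 0 and 3 normalized counts for wild types, against 8 and 2 for mutants. As in *apoeb*, wild-type replicate 1 was lowest and mutant replicate 1 highest, with a mean too low for the test. *apoc1* (ENSDARG00000092170; chromosome 16, 23972126 to 23973721) stood at 4 and 11 normalized counts in wild-type pools, and at 5 and 2 in mutant pools. It was highest in wild-type replicate 2 and lowest in mutant replicate 2, as was *apoa1a*, and it passed the mean of 5 only through wild-type replicate 2. The genotype difference of *apoc1* was -0.87 and its library pair difference -1.13, with no test read for the same reason as in *apobb.1*.

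*tfa* (ENSDARG00000016771; chromosome 2, 16780643 to 16794710) encodes transferrin, the iron carrier of plasma. It measured 178 and 77 normalized counts across wild types, with 145 and 343 across mutants. Mutant replicate 2 was highest and wild-type replicate 2 lowest, with the replicates 1 between them, and the genotypes overlapped. The mean was 128 ± 71.4 for wild types and 244 ± 140.0 for mutants (SD, n = 2 each). The genotype difference of *tfa* was 0.92 on the log2 scale (standard error 0.65, adjusted p = 0.465 from limma), and its library pair difference was 1.22 (standard error 0.50, adjusted p = 0.346 from limma). Of the 4372 tested genes with a mean within a factor of 2 of that of *tfa*, 0.915% had a library pair difference at least as large. A genotype difference at least as large was seen in 2.24%.

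The library pair contrast was also fitted with limma over all genes. None of the 17501 genes passed adjustment (0.0%), while 2994 (17.1%) had p under 0.05 before it. None of the 5 members with at least 26 normalized counts in every library passed adjustment (adjusted p from 0.271 to 0.972 in limma). Of these, *apoa1a* and *apoa2* had p under 0.05 before it, 2 of the 5 against 16.4% of genes whose mean reached 20. A difference of more than 1.5-fold between the pairs was seen in 4 of the 5 (9.82% of those genes). It was above 0 for *apoa2* and *tfa* (4.99%) and below 0 for *apoa1a* and *apoeb* (4.83%), with *apoa1a* just past the limit at -0.60. The same 4 genes were those whose library pairs did not overlap (44.6%), and in these 4 the library pair difference was larger than the genotype difference, as in 45.4% of those genes. Since the spread used for this test is made of the genotype difference, a gene that differs along both has a large error in both tests.

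**Figure D3:**
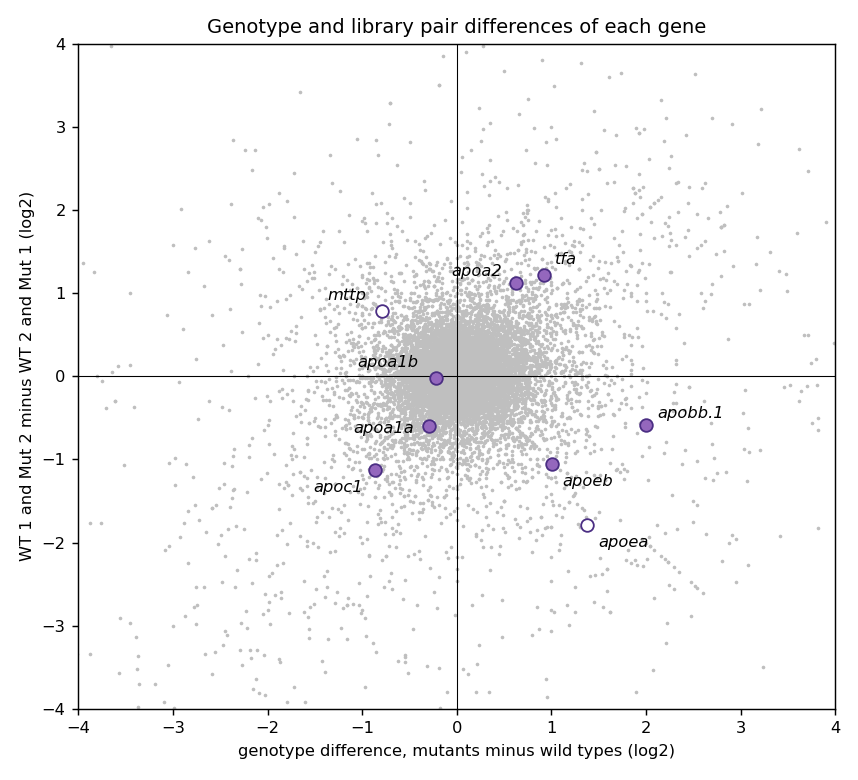
Genotype difference (horizontal axis, log2) against library pair difference (vertical axis, log2) for all genes tested (gray) and the 9 genes with a row (purple, open where the mean was under 5); 91 genes lie outside the axes. *apoa2* and *tfa* lie in the upper right, *apoeb* and *apobb.1* in the lower right and *apoa1a* and *apoc1* in the lower left, so the group has no common direction.

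*apoeb*, *apoc1* and *apoa2* are neighbors on the same strand of chromosome 16, within 19.6 kb from the start of *apoeb* to the end of *apoa2* (danRer11). Their library pair differences had opposite signs. The value was 1.13 for *apoa2*, -1.05 for *apoeb* and -1.13 for *apoc1*. Other apolipoprotein genes with rows within 20 kb of this stretch, named for their position after their values were seen, were *apoa4b.2* and *apoc2*. *apoa4b.2* was at 8 and 19 normalized counts for wild types, against 20 and 9 for mutants, a library pair difference of -1.11. *apoc2*, whose product activates lipoprotein lipase, stood at 14 and 42 normalized counts in wild-type pools, and at 7 and 2 in mutant pools, with a library pair difference of -1.47 and a genotype difference of -2.37. The annotated span of *nbn* overlaps *apoeb* and *apoc1* on the same strand, and *nbn* had a library pair difference of -0.12.

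Further genes of the pathway were taken from lists. Among 15 other apolipoprotein genes 7 had a row and 6 were tested. None had an adjusted p under 0.05 between genotypes. Before adjustment *apol1* was lower in mutants at p under 0.05 in limma (10.8% of all genes), and none was higher. *apoc2*, at 7 and 2 normalized counts in mutants, passed the mean of 5 through its wild-type values. No test of *apoc2* is therefore read, and it is not counted. *apol1* measured 440 and 446 normalized counts across wild types, with 354 and 361 across mutants, a difference of -0.31 (standard error 0.06, adjusted p = 0.14 from limma). *apof* was at 180 and 111 for wild types, against 87 and 146 for mutants, the pair direction of *apoa2*. *apoa4b.1*, an intestinal and yolk apolipoprotein, stood at 32 and 41 in wild-type pools, and at 27 and 22 in mutant pools. The 6 genes had a median library pair difference of -0.71 and a median genotype difference of -0.44. These medians include *apoc2* and also *apodb*, which passed the filter only through wild-type replicate 2. *apodb* was at 4 and 63 normalized counts for wild types, against 7 and 0 for mutants.

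Of 30 other plasma protein genes 17 had a row and 8 were tested, none with an adjusted p under 0.05. *cfh*, complement factor H, stood at 21 and 2 normalized counts in wild-type pools, and at 19 and 184 in mutant pools. Like *tfa*, it was highest in mutant replicate 2 and lowest in wild-type replicate 2. *rbp4*, the retinol carrier of plasma, measured 32 and 99 across wild types, with 26 and 8 across mutants, highest and lowest in the same libraries as *apoa1a* and *apoc1*. *serpinc1*, which encodes antithrombin, had 8 in each wild type, with 20 and 21 across mutants (adjusted p = 0.134 from limma).

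In the list for lipoprotein assembly and secretion, 9 of 11 genes were tested, and the median genotype difference was 0.06. None had an unadjusted p under 0.05 between genotypes in limma (21.6% of all genes). *sar1b*, a GTPase of the vesicles that carry lipoproteins out of the endoplasmic reticulum, was at 1985 and 2163 normalized counts for wild types, against 1960 and 1863 for mutants. *surf4* and *mia3*, which act in the same export step, had genotype differences of 0.02 and 0.06. Of 20 genes for lipoprotein receptors, lipases and lipid transfer 16 were tested, and before adjustment 3 were higher and 2 lower in mutants (10.8% of all genes in each direction), with a median of -0.02. *lpl*, lipoprotein lipase, stood at 4425 and 4499 in wild-type pools, and at 4370 and 4451 in mutant pools. *vldlr*, a receptor for apolipoprotein E particles, differed by -0.22 (standard error 0.09, adjusted p = 0.29 from limma), and *lrpap1*, a receptor chaperone, by -0.02. Of 15 transcription factor genes of the yolk syncytial layer and liver 7 were tested, and *prox1a*, *cebpa* and *creb3l3b* had genotype differences of -0.04, 0.11 and 0.37. Before adjustment 1 of the 7, *foxa2*, was higher in mutants (10.8% of all genes). A difference of more than 1.5-fold was seen in 3 of the 7 (17.1% of all genes), *foxa1*, *foxa2* and *foxa3*. *foxa3* stood at 7 and 19 normalized counts in wild-type pools, and at 2 and 1 in mutant pools. It passed the mean of 5 only through the wild types, so no test of it is read, though the count of 3 includes it. *foxa2*, a liver and gut factor, was at 13 and 20 normalized counts for wild types, against 40 and 28 for mutants. Its relatives *foxa3* and *foxa1* had genotype differences of -2.37 and -1.14, at no more than 21 normalized counts in any library. None of the tested genes in these 3 lists had an adjusted p under 0.05.

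Markers of other tissues were set beside the same library pairs. The library pairs did not overlap in any of the 8 epidermis markers (against 44.9% of all genes), each with its lower values in wild-type replicate 1 and mutant replicate 2. Their median library pair difference was -2.58, 2 of the 8 had p under 0.05 before adjustment (17.1% of all genes), and none passed it in limma. Their median genotype difference was also below 0, at -2.20. Of the 8, 6 were more than 1.5-fold lower in mutants (17.1% of all genes in either direction). None had an unadjusted p under 0.05 between genotypes in limma (21.6% of all genes). The epidermis markers summed to 3575 and 18673 normalized counts for wild types, against 4403 and 1295 for mutants, and *krt4*, a keratin of the outer skin layer, measured 1765 and 10395 across wild types, with 2015 and 354 across mutants. The order of the libraries in this sum was the order seen in *apoa1a* and *apoc1*. It was not the order of *apoeb*, whose highest library was mutant replicate 1. All 5 epicardial markers had a library pair difference above 0, the direction of *apoa2* and *tfa*, with a median of 0.77, and the library pairs did not overlap in 4 of them (44.9% of all genes). Those 4 had p under 0.05 before adjustment (17.1% of all genes), and none passed it in limma. *tbx18*, which encodes an epicardial transcription factor, was at 148 and 48 for wild types, against 47 and 148 for mutants.

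The 11 macrophage markers were all tested, and their sums were 3720 and 3129 normalized counts for wild types, against 3396 and 4205 for mutants, in the order of *apoa2* and *tfa*. That order was also seen in *lcp1*, the marker of highest mean, at 1592 and 1321 for wild types, against 1328 and 1657 for mutants. *coro1a*, *spi1b* and *marco* had it as well. It was not the order of the other markers, *mpeg1.1* and *csf1ra* among them, so the macrophage list as a whole did not follow it. The library pair differences of the 11 markers ran from -0.94 for *csf1ra* to 0.87 for *marco*, with 9 of 11 above 0. Those of *apoeb* and *apoc1*, also known from the macrophage lineage, were -1.05 and -1.13, in the direction of the other 2 markers. *apoc1* did not exceed 11 normalized counts. Before adjustment 4 of the 11 had p under 0.05 between the library pairs (17.1% of all genes), and none passed it in limma. Between genotypes 3 of the 11 were higher in mutants at p under 0.05 before adjustment in limma (10.8% of all genes). None was lower, and none passed adjustment. *mpeg1.1*, a defining macrophage marker, stood at 624 and 615 in wild-type pools, and at 667 and 701 in mutant pools, while *marco*, a macrophage scavenger receptor gene, measured 148 and 82 across wild types, with 101 and 189 across mutants. Gut and exocrine pancreas markers were low, with sums from 57 to 142 over 6 genes with a row. Of these, *fabp2*, an intestinal fatty acid carrier, measured 5 and 71 normalized counts across wild types, with 11 and 0 across mutants. The highest sum, in wild-type replicate 2, includes these 71. *ela2*, the marker of highest mean, was at 18 and 27 for wild types, against 31 and 22 for mutants. *ela2* and *ela2l* had genotype differences above 0, at 0.23 and 0.95, while the median of the 5 tested genes was -0.56. Hatching gland markers were lower in both mutants in all 4 rows, with sums of 1432 and 1758 for wild types, against 27 and 21 for mutants. *he1.1* measured 987 and 1063 across wild types, with 17 and 16 across mutants, and passed adjustment in limma. Its genotypes did not overlap, as in 52.1% of genes whose mean reached 20, in either direction. The other rows had no more than 5 normalized counts in either mutant and passed the mean of 5 only through the wild types. No test of them is read, and they are not set against that share. Cardiomyocyte and endocardial marker sums lay between 33190 and 44188 and between 17900 and 20617. Most of the cardiomyocyte range came from *ttn.2*, at 6313 and 11641 normalized counts for wild types, against 6734 and 3780 for mutants. The part of any of these tissues in the levels of the lipoprotein genes was not tested, and with 2 free differences per gene, a shared order of 4 libraries is a description.

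**Figure D4:**
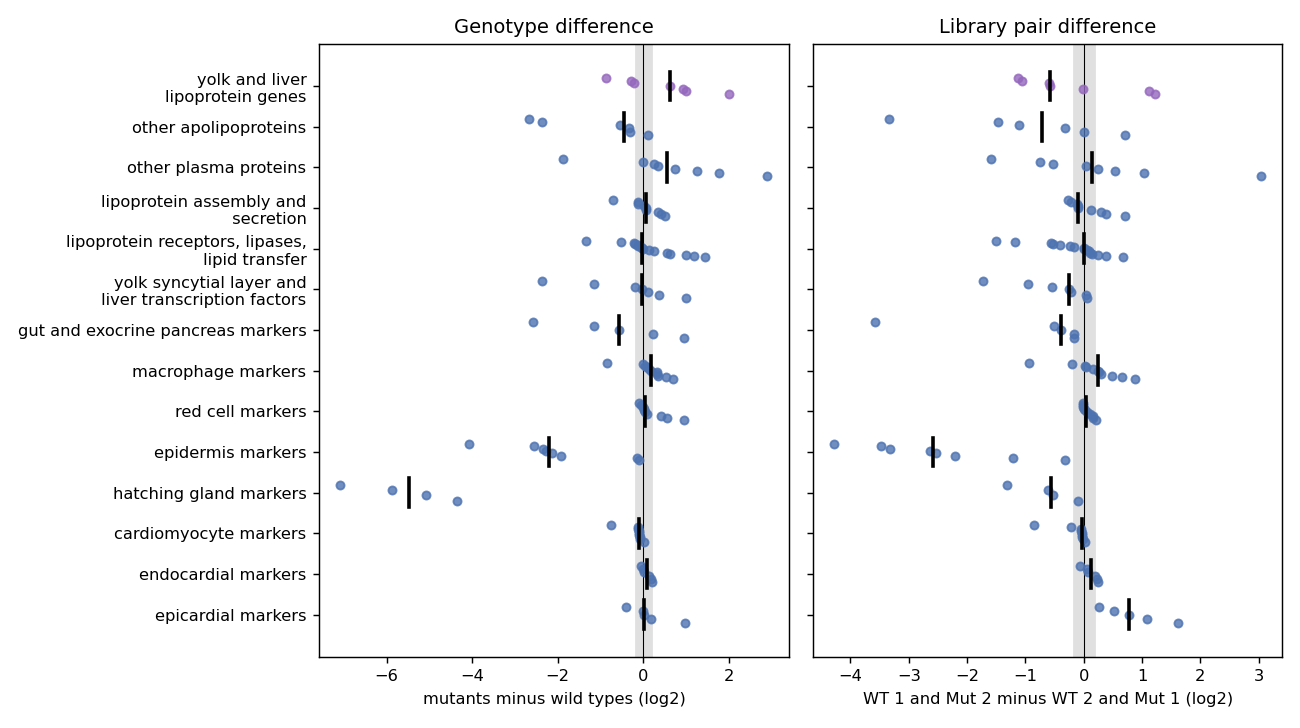
Genotype difference (left, log2) and library pair difference (right, log2) of each tested gene (points) in each list, with the list's median (black bar) and the quartiles of all genes tested (gray band). The lipoprotein genes (purple) spread on both sides of 0 in both panels, whereas the 8 epidermis markers lie below 0 and the 5 epicardial markers above 0 in the right panel.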

How the data were processed

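RNA of dissected hearts was made into SMART-Seq v4 libraries, 2 per genotype. Per the labels and the study's methods, the authors trimmed reads with Trimmomatic 0.39, aligned them with STAR 2.7.10a to danRer11, removed duplicate (Picard 2.27.1), multi-mapping, mitochondrial and ribosomal RNA reads, counted exon reads with featureCounts 2.0.2, and normalized with DESeq2 1.30.1. The unit recorded for these deposited numbers is a score, meaning scaled and rounded counts. Raw reads cannot be read from them, so the depth behind a value is unknown and no counting interval is given. Removing duplicates by start position compresses abundant genes. The near-constant difference between replicate numbers is a property of the deposited values; the sources used here name no step that would remove it.

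Values were compared as log2(value + 1) with limma 3.58.1 in R 4.3.3 (eBayes with trend; Benjamini-Hochberg adjustment over 17501 genes with a mean of at least 5), without a block, as the study names none. The fit was tested on simulated data with independent libraries and 200 genes changed 4-fold. Those data lack the near-constant difference between replicate numbers, so that test cannot show whether the errors are right here. Tables used Python 3.11.15 with pandas 2.3.3. The pools are described as biological duplicates, and p-values use the spread between the deposited values of these pools. For the genotype contrast that spread is the library pair difference, counted in each genotype though it is the same measurement in both. Standard errors, intervals and p-values without a block can therefore be too small, and they do not measure a spread between independent pools.

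The members and lists were chosen with earlier results of these data known. All members are named, with genes among the 3 of highest mean in each list and any list gene with an adjusted p under 0.05 (*he1.1*). Exceptions chosen after their values were seen are *apoa4b.2*, *apoc2*, *apodb*, *nbn*, *foxa1*, *foxa2*, *foxa3*, *csf1ra*, *spi1b* and *marco*. So is the choice to count members only where every library was well above the filter. 2 listed symbols were matched through RefSeq synonyms. A planned promoter motif count was not run. Alternatives were other pseudocounts (0.5 and 5), other filters, scalings, no trend, blocks and leaving out each library.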

Additional observations from a re-analysis of the deposited data

How the results depend on the processing

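Of the 182 alternative values of single members, 164 kept their direction and side of the threshold, 13 passed it, and 5 changed sign. These counts include *apobb.1*, *apoc1*, *apoea* and *mttp*, for which no test is read. All 13 that passed came from the crossed block or the genotype block described next. With the replicate number as a block (replicate block), 0 genes passed between genotypes against 1 without it, and no call of a member changed. Deviations of same-numbered libraries had a correlation across genes of -0.99. The crossed replicate block, chosen after seeing the data, gave 12169 genes, and the genotype block gave 11568 genes for the library pair contrast, since the spread left is the near-constant replicate number difference. Between genotypes, no filter gave 0 genes, a mean of at least 20 gave 3, no variance trend gave 28, and leaving out any library gave from 0 to 0. For the library pairs, no variance trend gave 21 genes. A mean of at least 20 left 14692 genes tested against 17501. Of these, 1548 (10.5%) differed by more than 1.5-fold between genotypes against 3001 (17.1%), and 1443 (9.82%) between library pairs against 2954. The share fell as well as the number, so genes of low level more often passed 1.5-fold. Leaving out single libraries changed signs only for *apoa1a* between genotypes (-0.61 to 0.0198, the latter without wild-type replicate 2), and between library pairs for *apoa1b* (-0.14 to 0.10, above 0 without either replicate 2) and *apobb.1* (-1.58 to 0.41, above 0 without either replicate 1). It also moved genotype differences of *apoeb* (0.47 to 1.54, lowest without wild-type replicate 1) and *tfa* (0.31 to 1.54), and without either replicate 2 those of *tfa* and *apoa2* were at most 0.32 and 0.07. That of *apoc1* was -0.24 without wild-type replicate 2 and -0.37 without mutant replicate 2. Library pair differences moved for *apoeb* (-1.56 to -0.54), *tfa* (0.75 to 1.69) and *apoc1* (-1.63 to -0.63), and those of *apoeb* without either replicate 1 and of *apoa1a* without either replicate 2 were under 1.5-fold. The values carry no read depth, so levels under about 10 normalized counts (*apobb.1*, *apoc1*, *apoea*, *mttp*) are given as listed.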
